A study of Mus musculus with 8 samples.

Results

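The Slc25 mitochondrial carriers were followed in the livers of food-restricted and control pregnant mice and of their male fetuses. The members were all probes of the Agilent mouse array, other than control spots, that the array's own annotation names Slc25a followed by a number. They comprised 42 genes and 73 probes, of 28104 genes and 41174 probes in all. Of the 42 genes, 41 had a probe well above background in the fetuses and 40 in the mothers. Slc25a41 passed in neither, and Slc25a43 passed in the fetuses only.

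C57BL/6J mice in the food restriction (FR) groups were under 50% food restriction from gestation day 10 to 17, and liver was taken on gestation day 18. The 4 kinds of RNA pool were FR mothers, control mothers, male fetuses of FR mothers and male fetuses of control mothers; every diet had 6 mothers, each of which gave 2 male fetuses. No group carried a genetic change, and control mothers ate freely. Each FR pool shared its arrays with a control pool, once in each dye orientation, giving 1 pool pair of mothers (6 livers per pool, slide 1), 1 pool pair of fetuses (6 livers per pool, slide 1) and 2 pool pairs of fetuses (3 livers per pool, slide 2), on 8 arrays. The labels do not say which mothers gave which fetal pool. With 2 male fetuses from each of 6 mothers, pools of 6, 3 and 3 livers cannot all come from separate mothers. Some fetal pools of a diet therefore share mothers, and the p-values measure the spread between pool pairs only. All log2 ratios are FR over control, averaged over both dye orientations.

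The 10 hepatocyte markers on the array were above background in the control channel of every pool pair, as were the 12 erythroid markers in the fetuses, whose liver forms blood cells at this age. Raw median spot signals were 69.1 to 284 for Cy3 and 122 to 310 for Cy5, and the dye-exchanged arrays of a pool pair correlated across probes with r between 0.577 and 0.766. Slide 1, which held the mothers, had the dimmer Cy3 signals, read as spot means there and as spot medians on slide 2. The maternal arrays were the dimmest in both dyes, with Cy5 at 122 and 135 against 233 to 310 on the fetal arrays. On slide 1, 78.4% to 86.9% of the brightest 10% of spots were marked non-uniform in Cy3. The highest such share on slide 2 was 0.0692%.

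Carriers of this family sit mostly in the inner mitochondrial membrane and exchange nucleotides, amino acids, carboxylic acids, cofactors and metals between cytosol and matrix. In liver they link cytosolic and matrix steps of the urea cycle, gluconeogenesis, fatty acid oxidation, folate metabolism and heme synthesis. Most are made in the cytosol without a cleaved presequence and reach the inner membrane through the TOM complex, the small TIM chaperones and the TIM22 complex.

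In fetal liver, 11 of the 41 carriers measured rose with maternal FR and 2 fell. Slc25a32, the mitochondrial folate carrier, rose most, 2.12-fold, followed by Slc25a16, a carrier linked to coenzyme A, at 1.49-fold, and Slc25a25, a calcium-dependent ATP-magnesium/phosphate carrier, at 1.40-fold. The ADP/ATP translocases Slc25a4 and Slc25a5, the dicarboxylate carrier Slc25a10, the mitoferrin Slc25a28 and the glutathione carrier Slc25a39 were among the others that rose. Slc25a45 and the citrate carrier Slc25a1 fell. The carriers that rose were 26.8% of those measured and those that fell 4.88%, where 11.3% of the 21105 genes tested rose and 14.2% fell, 25.6% in all (limma against 0 over 3 pool pairs, Benjamini-Hochberg adjusted p under 0.05). The median log2 ratio of the 41 carriers was 0.03 and that of all genes 0.01. With median centring in place of loess, 2 carriers rose and 1 fell, against 3.38% and 10.7% of all genes. On the 2 pool pairs of slide 2 alone no gene on the array passed the adjusted threshold; at an unadjusted p under 0.05, 12 carriers were then higher and 2 lower. Without the first pool pair of 3, 6 carriers (Slc25a32, Slc25a16, Slc25a25, Slc25a10, Slc25a5 and Slc25a29) rose and none fell. Of all genes, 5.49% then rose and 6.63% fell. At an unadjusted p under 0.05, 11 carriers were higher and 4 lower in that fit. The share of all genes at that unadjusted p was not counted, so the unadjusted counts do not compare the carriers with the array.

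In maternal liver, with 1 pool pair and so no test, 3 carriers were at least 1.5-fold higher in FR on both arrays and 2 at least 1.5-fold lower. Among the members Slc25a32 was again the highest, 2.95-fold, followed by Slc25a12, the aspartate/glutamate carrier known as aralar, at 2.08-fold and Slc25a33, a pyrimidine nucleotide carrier, at 1.71-fold. Slc25a30, a relative of the uncoupling proteins first described in kidney, was lowest, at a log2 ratio of -1.45, and Slc25a45 was at -1.11. These were 7.5% and 5% of the 40 carriers measured, where 3.00% of 19516 genes were called higher and 3.88% lower by the same rule, 6.88% in all. At 2-fold on both arrays 2 carriers were higher and 2 lower, beside 1.00% and 1.17% of all genes. The other 35 carriers lay between -0.51 (Slc25a25) and 0.63 (Slc25a28). With median centring in place of loess, 1 carrier was called higher and 1 lower, against 0.769% and 0.938% of all genes.

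**Figure D1:**
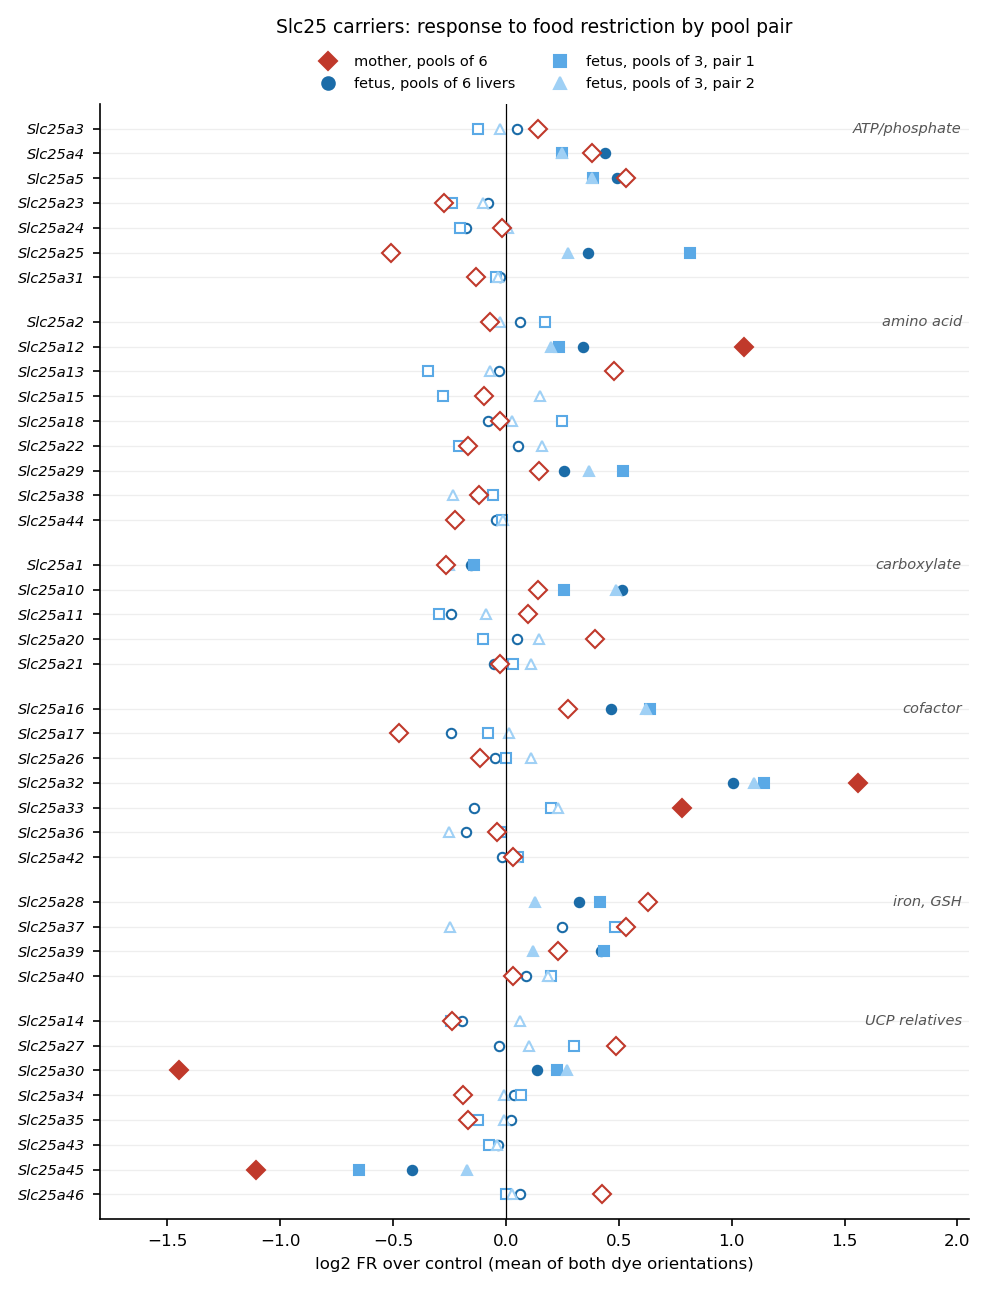
Response of 40 Slc25 carriers by pool pair, with log2 FR over control on the horizontal axis; red diamonds are the maternal pool pair and blue circles, squares and triangles the 3 fetal pool pairs. Filled symbols mark carriers called in that result (fetus: limma adjusted p under 0.05; mother: 1.5-fold on both arrays). Slc25a32 lies furthest to the right in both, and Slc25a30 shows the maternal point at -1.45 with all 3 fetal points right of 0.

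Slc25a32 carries folate across the inner membrane, and has been described as a FAD carrier as well. Its log2 channel level in mothers was 11.40 in the FR pool and 9.84 in the control pool. In the fetuses the FR pools had 10.82, 10.39 and 10.22, and the control pools of the same arrays 9.82, 9.24 and 9.12. Each FR pool was above its own control pool, and every fetal FR pool was above every fetal control pool. The fetal log2 ratios were 1.01, 1.14 and 1.10 (mean 1.08 ± 0.07, SD, n = 3; limma adjusted p = 0.00404), higher on 6 of 6 arrays. The maternal log2 ratio was 1.56, with 1.44 and 1.68 on its arrays. The maternal response exceeded the fetal one by 0.48, which did not pass the test of the difference (limma, adjusted p = 0.0726). The probe lies on chromosome 15 (mm9, 38926713 to 38926772, minus strand) and is the only one for this gene.

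Genes of mitochondrial folate metabolism, chosen after their values were seen, included some that rose and some that fell. Those named here are a selection from a longer set of folate and glycine cleavage genes that was looked up. They do not describe the pathway as a whole. Mthfd1l, the mitochondrial enzyme that releases formate, rose in the fetuses at 0.41 (limma adjusted p = 0.0107) and was called higher in the mothers at 0.88. Mthfd2, the preceding enzyme in proliferating cells, fell in the fetuses at -0.44 (limma adjusted p = 0.00905) and was at -0.05 in the mothers. Shmt2, which makes one-carbon units from serine in mitochondria, was at 0.05 in the fetuses and -0.19 in the mothers and was called in neither. Gldc, the glycine-cleaving decarboxylase, rose in the fetuses at 0.79 (limma adjusted p = 0.00876) and was at -0.12 in the mothers. Dcaf13, the gene after Slc25a32 in the RefSeq gene order, rose in the fetuses at 0.43 (limma adjusted p = 0.0101). It was called higher in the mothers at 0.61. The gene before Slc25a32, Cthrc1, was not among the genes looked up, so these values do not describe the locus.

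Slc25a30 was the carrier whose maternal and fetal responses differed most. In the mothers its log2 level was 9.08 in the FR pool and 10.53 in the control pool, and the log2 ratios of the arrays were -1.60 and -1.30. The fetal FR pools had 8.18, 8.05 and 7.99, and the fetal control pools 8.04, 7.83 and 7.72. The FR mothers thus lay closer to the fetal pools than the control mothers did, although no fetal pool reached them. Each fetal FR pool was above its own control pool, while the FR and control pools of the fetuses overlapped. The fetal log2 ratios were 0.14, 0.22 and 0.27 (mean 0.21 ± 0.07, SD, n = 3; limma adjusted p = 0.0366). The maternal minus fetal difference was -1.66 ± 0.10 (SE; limma adjusted p = 0.00942); with slide as a block, which sets the mothers against the fetal pool pair of the same slide, it was -1.59 with adjusted p = 0.135, and no gene on the array passed in that fit. A dimmer probe of the gene gave -0.96 in the mothers and 0.13 in the fetuses, and another, which did not pass in the fetuses, -0.05 in the mothers. The fetal call was lost under 6 of 11 alternative settings, averaging of the probes among them, with the same sign in each. The probe read lies on chromosome 14 (mm9, 76161603 to 76161662, minus strand).

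Slc25a12, which exports aspartate from mitochondria in exchange for glutamate, had a log2 level of 11.87 in FR mothers and 10.81 in control mothers. In the fetuses its level was 12.34, 11.82 and 11.70 in FR pools and 12.00, 11.59 and 11.50 in control pools. The FR mothers were within the range of the fetal pools, and the control mothers below all of them. The log2 ratios were 1.04 and 1.06 on the maternal arrays and 0.34, 0.24 and 0.20 in the fetal pool pairs (mean 0.26 ± 0.07, SD, n = 3; limma adjusted p = 0.0231). The difference between the responses was 0.79 ± 0.10 (SE; limma adjusted p = 0.0285), and 0.71 with slide as a block (adjusted p = 0.216). These values rest on 1 probe (chromosome 2, mm9, 71112979 to 71113038, minus strand): a much dimmer one gave 0.06 in the mothers and -0.02 in the fetuses, and neither call nor the difference held when the probes were averaged. Slc25a13, the other aspartate/glutamate carrier and the main one of adult liver, was at 0.48 in the mothers (arrays 0.30 and 0.66) and -0.15 in the fetuses, and was called in neither; with the deposited ratios its difference of 0.67 passed (limma adjusted p = 0.0446).

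Slc25a45, a carrier of less certain substrate, was lower in FR in both. Its level was 9.62 in FR mothers and 10.73 in control mothers. The fetal FR pools had 8.95, 8.52 and 8.94, and the fetal control pools 9.37, 9.17 and 9.12, so that every FR pool of the fetuses was below every control pool. The log2 ratios were -1.17 and -1.05 on the maternal arrays and -0.42, -0.65 and -0.17 in the fetal pool pairs (mean -0.41 ± 0.24, SD, n = 3; limma adjusted p = 0.0375). The maternal minus fetal difference of -0.69 did not pass (limma adjusted p = 0.126). Its only probe lies on chromosome 19 (mm9, 5885329 to 5885388, plus strand).

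Across the 40 carriers read in both, only Slc25a12 and Slc25a30 passed the test of a difference between the maternal and fetal response, 1 in each direction, where 1.99% of 18980 genes had a higher maternal response and 2.08% a lower one, 4.07% in all. This test takes the spread of the fetal pool pairs as that of the lone maternal one. Without the fetal pool pair of 6 no gene on the array passed. The differences were then 0.84 for Slc25a12 (limma adjusted p = 0.12) and -1.70 for Slc25a30 (limma adjusted p = 0.0915). Slc25a32 and Slc25a12 were called higher in both, Slc25a45 lower in both, and Slc25a30 in opposite directions. The maternal and fetal responses had the same sign for 29 of the 40 carriers, or 72.5%, and for 66.9% of the 19047 genes read in both. Their correlation was r = 0.54 over the carriers and 0.49 over all genes, as a description across genes, with slide 1 shared by the mothers and 1 fetal pool pair.

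**Figure D2:**
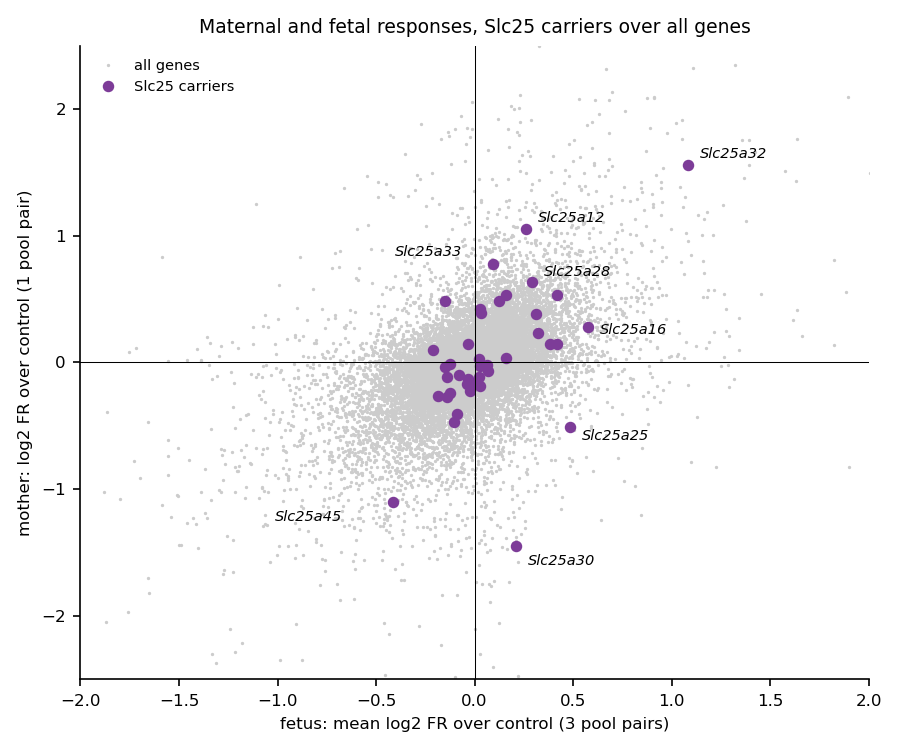
Maternal log2 FR over control (vertical axis, 1 pool pair) against the fetal mean (horizontal axis, 3 pool pairs) for 19047 genes in grey and the 40 Slc25 carriers read in both in purple; 27 genes lie outside the axes. Slc25a32 is at 1.56 and 1.08, Slc25a45 in the lower left, and Slc25a30 and Slc25a25 in the lower right quadrant.

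The 250 bases before the RefSeq start (GRCm38.p6) are shown for the carriers called in the mothers that have an entry in the promoter table, and for Slc25a25, a carrier whose maternal and fetal ratios had opposite signs; of its 3 starts the one with a CRE was chosen for that match. They are written 5′ to 3′ on the gene's strand, at chr2:71367756-71368005 (minus), chr4:149774268-149774517 (minus), chr14:75787038-75787287 (minus), chr19:5877572-5877821 (plus) and chr2:32424067-32424316 (minus), and capitals mark motif matches.
Slc25a12: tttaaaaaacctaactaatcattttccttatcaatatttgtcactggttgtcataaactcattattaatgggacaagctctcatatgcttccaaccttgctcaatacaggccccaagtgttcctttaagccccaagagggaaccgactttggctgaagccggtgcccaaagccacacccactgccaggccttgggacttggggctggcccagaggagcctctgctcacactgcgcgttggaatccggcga
Slc25a33: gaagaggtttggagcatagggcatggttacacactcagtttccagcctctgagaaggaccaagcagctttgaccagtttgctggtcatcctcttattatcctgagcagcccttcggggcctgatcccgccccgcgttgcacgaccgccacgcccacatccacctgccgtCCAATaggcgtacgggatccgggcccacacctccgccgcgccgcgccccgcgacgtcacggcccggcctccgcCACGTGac
Slc25a30: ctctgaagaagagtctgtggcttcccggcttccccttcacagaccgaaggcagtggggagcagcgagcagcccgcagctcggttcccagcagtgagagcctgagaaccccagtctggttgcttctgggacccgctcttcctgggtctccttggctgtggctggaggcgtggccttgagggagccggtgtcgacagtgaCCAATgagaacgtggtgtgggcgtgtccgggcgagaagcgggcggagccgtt
Slc25a45: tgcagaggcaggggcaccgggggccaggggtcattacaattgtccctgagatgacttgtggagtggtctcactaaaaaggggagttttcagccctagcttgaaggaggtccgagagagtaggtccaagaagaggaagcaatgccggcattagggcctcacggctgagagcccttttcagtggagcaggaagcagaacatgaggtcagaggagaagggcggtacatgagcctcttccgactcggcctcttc
Slc25a25: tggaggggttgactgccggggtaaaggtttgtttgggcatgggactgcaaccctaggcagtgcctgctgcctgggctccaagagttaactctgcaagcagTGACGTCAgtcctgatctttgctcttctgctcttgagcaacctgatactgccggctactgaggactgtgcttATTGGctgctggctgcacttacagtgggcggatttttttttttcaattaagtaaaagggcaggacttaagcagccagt

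The search covered 8 motifs on both strands: the NRF1 site (GCGCA and GCGC with 1 base between), the E-box CACGTG, the cyclic AMP response element (CRE) TGACGTCA, the amino acid response element TGATGNAAN, the nuclear receptor repeat DR1 (AGGTCA at each end of 1 base), the glucocorticoid response element (AGAACA and TGTTCT with 3 bases between), the CCAAT box and the forkhead site TGTTTAC. Slc25a33 held an E-box at positions -8 to -3 from the start, and Slc25a25 a CRE at -150 to -143. Single CCAAT boxes lay in the windows of Slc25a33, Slc25a30 and Slc25a25, and Slc25a12 and Slc25a45 had no match. Entries existed for 32 of the 42 carriers, with 41 promoters. An E-box was present in 19.5% of these 41 and in 6.02% of all 32851 promoters, a CRE in 4.88% and 1.55%, an NRF1 site in 4.88% and 3.74%, and a CCAAT box in 46.3% and 33.8%. The other 4 motifs had no match in the carriers' windows and lay in 3.44% (amino acid response element), 0.0335% (DR1), 0.00913% (glucocorticoid response element) and 3.17% (forkhead) of all promoters. These shares are a description of letters in a window.

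Among the carriers of adenine nucleotides and phosphate, 3 of 7 rose in the fetuses and none fell. The other 4, which include Slc25a23 and Slc25a24, relatives of Slc25a25, lay between -0.14 and -0.03. Slc25a5, the widespread ADP/ATP translocase, had fetal log2 ratios of 0.49, 0.39 and 0.38 (limma adjusted p = 0.00848) and 0.80 and 0.26 on the maternal arrays. Slc25a4, the translocase of heart and muscle, had 0.44, 0.25 and 0.25 in the fetuses (limma adjusted p = 0.0216) and 0.36 and 0.40 on the maternal arrays; a second bright probe gave 0.31 in the fetuses and -0.09 in the mothers. Both were higher on all 6 fetal arrays. The probes of these close relatives may share hybridisation, which was not tested.

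Slc25a25, whose calcium-dependent exchange of ATP-magnesium for phosphate sets the adenine nucleotide content of the matrix, had levels of 12.27 in FR mothers and 12.78 in control mothers. Its fetal FR pools had 10.84, 11.14 and 10.63, and the fetal control pools 10.48, 10.33 and 10.36, so that every fetal FR pool was above every fetal control pool. The fetal log2 ratios of 0.36, 0.82 and 0.27 (mean 0.48 ± 0.29, SD, n = 3; limma adjusted p = 0.0382) stood beside a maternal one of -0.51. The difference of -0.99 did not pass (limma adjusted p = 0.0872), but did without either pool pair of 3 (-0.83, adjusted p = 0.0352, and -1.10, adjusted p = 0.047). A second probe gave 0.52 in the fetuses and -0.23 in the mothers, and the dimmest one 0.11 in the fetuses and -0.26 in the mothers. Slc25a3, the phosphate carrier, was at -0.03 in the fetuses and 0.14 in the mothers, where it was called higher at 0.82 with non-uniform spots left out, then read from a much dimmer probe. Slc25a31, the translocase of germ cells, was at -0.03 in the fetuses and -0.13 in the mothers.

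Of the 9 amino acid carriers, Slc25a12 and Slc25a29 rose in the fetuses and none fell. Slc25a29, a carrier of arginine, lysine and ornithine, had 0.26, 0.52 and 0.37 (mean 0.38 ± 0.13, SD, n = 3; limma adjusted p = 0.0167), with a second probe of similar brightness at 0.11, and 0.15 in the mothers. Slc25a15, the ornithine carrier of the urea cycle, was at -0.08 ± 0.22 (SD, n = 3) in the fetuses and -0.10 in the mothers. Slc25a2, a second ornithine carrier, Slc25a18 and Slc25a22, which carry glutamate, Slc25a38, which carries glycine for heme synthesis, and Slc25a44, a carrier of branched-chain amino acids, lay between -0.14 and 0.07 in the fetuses and between -0.22 and -0.02 in the mothers. Of 10 urea cycle and ornithine genes, 5 rose in the fetuses and 1 fell. The argininosuccinate lyase gene Asl rose at 0.80 (limma adjusted p = 0.00788), Arg1, which forms urea and ornithine, at 0.75 (limma adjusted p = 0.00748) and Cps1, the entry enzyme, at 0.67 (limma adjusted p = 0.0398). Otc, which joins ornithine to carbamoyl phosphate in the matrix, fell at -0.66 (limma adjusted p = 0.00797) and was called lower in the mothers at -0.82. In the mothers Asl was the 1 gene of the list called higher, at 0.87.

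Carriers of carboxylic acids and acylcarnitine comprised 5 members, of which Slc25a10 rose in the fetuses and Slc25a1 fell. Slc25a10, which exchanges malate and succinate for phosphate, had fetal log2 ratios of 0.52, 0.26 and 0.49 (mean 0.42 ± 0.14, SD, n = 3; limma adjusted p = 0.0146) and 0.14 in the mothers. Slc25a1, which exports citrate for fatty acid synthesis, had -0.16, -0.14 and -0.25 (mean -0.18 ± 0.06, SD, n = 3; limma adjusted p = 0.0484) and -0.27 in the mothers. Its call lay at the threshold and was lost under 7 of 10 alternative settings, with the same sign in each. Just outside it was Slc25a11, the oxoglutarate carrier, at -0.21 (limma adjusted p = 0.0558) in the fetuses and 0.10 in the mothers; it passed with the arrays fitted singly and the pool pair as a random block (limma adjusted p = 0.0279), and without the second pool pair of 3 (limma adjusted p = 0.0348). Acly, which splits the exported citrate, fell in the fetuses at -0.65 (limma adjusted p = 0.00575) and was called lower in the mothers at -0.81, and Me1, the cytosolic malic enzyme, fell in the fetuses at -0.67 (limma adjusted p = 0.00764). They were the only 2 of 12 malate-aspartate and citrate partners called in the fetuses. Slc25a20, which brings acylcarnitines into the matrix for oxidation, was at 0.03 ± 0.12 (SD, n = 3) in the fetuses and 0.39 in the mothers (arrays 0.26 and 0.52). Of 13 genes of carnitine and fatty acid entry, 2 rose in the fetuses and 5 fell; Cpt1a, the step before Slc25a20, rose at 0.53 (limma adjusted p = 0.00816), and Acsl1, which activates fatty acids, fell at -0.51 (limma adjusted p = 0.0108). Slc25a21, a carrier of oxodicarboxylates, was at 0.03 in the fetuses and -0.03 in the mothers.

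Slc25a32 and Slc25a16 were the carriers of cofactors and nucleotides that rose in the fetuses, of 8 measured. Slc25a16 had log2 levels of 12.25 in FR mothers and 11.97 in control mothers. Its fetal FR pools had 10.44, 9.81 and 9.79, and the fetal control pools 9.97, 9.17 and 9.17. Each FR pool was above its own control pool, while the pools of 3 were lower than the pools of 6 in both diets. The fetal log2 ratios were 0.47, 0.64 and 0.62 (mean 0.58 ± 0.09, SD, n = 3; limma adjusted p = 0.00669), and those of the maternal arrays 0.23 and 0.32. Slc25a33 had fetal log2 ratios of -0.14, 0.20 and 0.23 beside its maternal 0.66 and 0.89, with a second probe at 0.71 in the mothers. Its maternal call was lost under 4 of 8 alternative settings, with the same sign in each. These were median centring in place of loess, the deposited ratios, median spot signals and the 2-fold rule. The maternal minus fetal difference of 0.68 did not pass (limma adjusted p = 0.105). Slc25a42, another coenzyme A carrier, was at 0.02 in the fetuses and 0.03 in the mothers. Slc25a17, the carrier of peroxisomes, Slc25a26, which carries S-adenosylmethionine, and Slc25a36, a second pyrimidine nucleotide carrier, lay between -0.15 and 0.02 in the fetuses and between -0.47 and -0.04 in the mothers. A second probe of Slc25a26 gave 0.21 in the fetuses and 0.26 in the mothers, the opposite sign there, and Slc25a36 was called lower in the fetuses with its probes averaged (-0.17, limma adjusted p = 0.041).

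Of the 4 iron and glutathione carriers, Slc25a28 and Slc25a39 rose in the fetuses and none fell. Slc25a28, the mitoferrin of tissues outside the red cell lineage, had fetal log2 ratios of 0.32, 0.42 and 0.13 (mean 0.29 ± 0.15, SD, n = 3; limma adjusted p = 0.0383) and 0.78 and 0.48 on the maternal arrays, 1 of which was under 1.5-fold. Slc25a39, which with Slc25a40 brings glutathione into mitochondria, had 0.42, 0.44 and 0.12 (mean 0.32 ± 0.18, SD, n = 3; limma adjusted p = 0.0395) and 0.23 in the mothers. Slc25a40 was at 0.16 in the fetuses (limma adjusted p = 0.0686) and 0.03 in the mothers.

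Slc25a37, the mitoferrin of red cell precursors, had fetal log2 ratios of 0.25, 0.48 and -0.25 (mean 0.16 ± 0.37, SD, n = 3; limma adjusted p = 0.451). The summed linear channel level of the 12 erythroid markers in the same pool pairs was 425527, 499175 and 382437 in FR and 297189, 325609 and 390301 in controls. By gene, 2 of these 12 markers were called higher in the FR fetuses and 1 lower. The Slc25a37 ratio and the FR sum over the control sum were both highest in the second of these pool pairs and lowest in the third; in the first, the dye-exchanged arrays of Slc25a37 disagreed in sign (0.89 and -0.39). A dimmer probe gave 0.52 ± 0.49 in the fetuses (SD, n = 3) and 0.17 in the mothers, and without the third pool pair Slc25a37 passed (0.37, limma adjusted p = 0.0299). The part of the erythroid markers in its response was not tested. Fewer cells of a type and less RNA per cell cannot be told apart in these bulk samples. In the mothers Slc25a37 was at 0.53, beside an erythroid sum of 18352 in FR and 30536 in controls. Of the 7 erythroid markers measured there, 1 was called higher and 3 lower, with a median log2 ratio of -0.16. Of 15 iron, heme and iron-sulfur genes, 4 rose in the fetuses, among them Alas1, Fech and Urod, and 2 fell (Cpox and Uros).

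Among relatives of the uncoupling proteins and carriers of less certain substrate, Slc25a30 rose and Slc25a45 fell in the fetuses, of 8 measured. Slc25a14 and Slc25a27, the brain uncoupling proteins, were at -0.13 and 0.13 in the fetuses and at -0.24 and 0.49 in the mothers. With the deposited ratios Slc25a27 was called higher in the mothers at 1.10, with a maternal minus fetal difference of 0.94 (limma adjusted p = 0.0432), and with a normexp offset of 10 it was called higher at 0.78; a dimmer probe gave 0.09. Slc25a34, Slc25a35 and Slc25a43 lay between -0.05 and 0.03 in the fetuses, and Slc25a34 was at -0.19 and Slc25a35 at -0.17 in the mothers. With the deposited ratios Slc25a35, a dim probe, was called lower in the mothers at -0.93, with a difference of -0.82 (limma adjusted p = 0.04). Slc25a46, a protein of the outer membrane, was at 0.03 in the fetuses and 0.42 in the mothers on its brightest probe, while its dimmer probes gave 0.26 and 0.38 in the fetuses and 0.57 and 0.77 in the mothers. It was called higher in the fetuses when the probes were averaged (0.22, limma adjusted p = 0.0225) and when non-uniform spots were left out (0.26, limma adjusted p = 0.024). Ucp2, a member of the same superfamily that the array names otherwise, was at 0.03 in the fetuses and was called lower in the mothers at -1.04.

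A further carrier, Slc25a47, is listed on the array under an older name and so lies outside the 42; its values were seen before it was chosen. This carrier, described in liver, rose in the fetuses at 0.61 ± 0.19 (SD, n = 3; limma adjusted p = 0.0108) and was called higher in the mothers at 1.57 (arrays 1.72 and 1.42), with a difference of 0.96 (limma adjusted p = 0.049). Slc25a51, the NAD carrier, also under another name there, fell in the fetuses at -0.34 (limma adjusted p = 0.0372) and was at -0.08 in the mothers. Slc25a48 was at 0.05 in the fetuses and 0.13 in the mothers.

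Of 15 genes that bring carriers and other proteins into mitochondria, 6 rose in the fetuses and none fell, with a median log2 ratio of 0.09 against 0.01 for all genes. Those that rose were Tomm70a, the outer membrane receptor for carriers, at 0.46 (limma adjusted p = 0.00737), Tomm20 at 0.43, Timm10, a small chaperone of the intermembrane space, at 0.42, Timm8a1 at 0.37, Timm50 at 0.28 and Timm23 at 0.25. In the mothers Timm8a1, at 0.81, and Timm10, at 0.79, were called higher and none of the 15 lower. Of 17 genes of mitochondrial content and its regulators, 3 rose in the fetuses (Ppargc1a at 0.61, Nrf1 at 0.37 and Cox4i1 at 0.24). In the same pools 2 fell (Polg at -0.74 and Esrra at -0.32), and the median was -0.03. In the mothers 2 of the 17 were called higher and none lower, with a median of 0.22 against 0.003 for all genes. One of those higher was Ppargc1a, the coactivator of mitochondrial genes, at 1.24. Of 18 other transporters of the mitochondrial membranes, 3 rose in the fetuses and 1 fell.

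Markers of other cells moved with the diet in the same fetal pools. Of 9 granulocyte markers 7 fell in FR fetuses, and the summed level of the list was 273497 to 302903 in FR pools and 462787 to 474809 in control pools. Of 8 B-lineage markers 7 fell, with sums of 10303 to 16794 in FR pools and 27908 to 33366 in control pools. Of 10 hepatocyte markers 3 rose and 3 fell. In the order of the pool pairs their sums were 573892, 494897 and 530923 in FR pools and 559794, 623148 and 569418 in control pools. The FR sum was thus higher in the pool pair of 6 and lower in both pool pairs of 3. Of 7 macrophage markers 1 rose and 3 fell, with sums of 54704 to 56879 in FR pools and 49781 to 53880 in control pools. Of 5 exocrine pancreas markers 2 rose and none fell. Their sums were 5987, 4055 and 6070 in FR pools and 2644, 2459 and 2898 in control pools. Of 6 skeletal and cardiac muscle markers measured, 1 rose and none fell. The muscle sums were 1985, 1372 and 1155 in FR pools and 1276, 1277 and 1118 in control pools. FR was higher in every fetal pool pair for both lists. In the mothers the granulocyte sum was 12651 in FR and 23359 in controls, and the macrophage sum 23750 in FR and 33792 in controls. The pancreas sum was 5099 in FR and 3958 in controls. By gene, 1 of the 6 granulocyte markers measured in the mothers was called lower, with a median log2 ratio of -0.04. Of 7 macrophage markers 2 were called lower (median -0.52), and of 5 pancreas markers none was called (median -0.002). The sums weigh the brightest markers most. The part of these shifts in the carriers' responses was not tested.

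**Figure D3:**
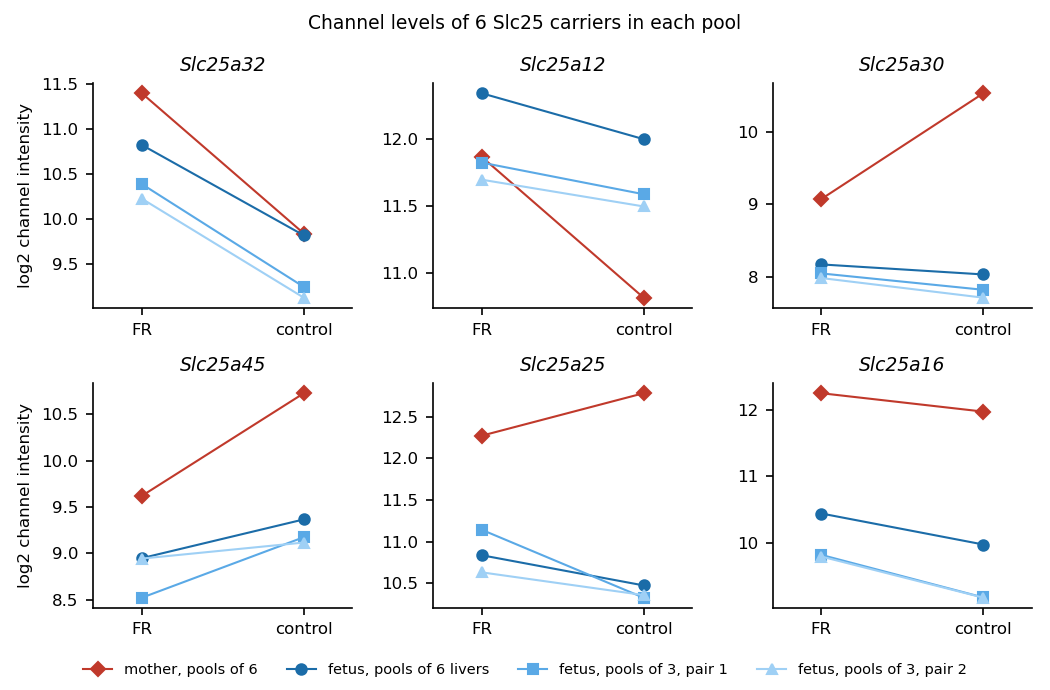
Log2 channel intensity after loess and Aquantile normalization for 6 carriers, with the FR pool left and the control pool of the same arrays right; each line joins the pools of 1 pool pair (red, mother; blue, fetus). Slc25a32 slopes down toward the control in every pool pair, and Slc25a30 slopes up in the mother and down in the 3 fetal pool pairs.

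Between control mothers and control fetuses, 13 of 41 carriers were higher in the mother and 8 lower, where 20.4% of 20863 genes were higher and 22.5% lower, 42.9% in all (limma with slide as a block, adjusted p under 0.05). The carriers higher in the mother included the ornithine carrier Slc25a15, 6.21-fold, Slc25a30, 5.60-fold, Slc25a25, 4.95-fold, the glutamate carrier Slc25a22, 4.45-fold, and the dicarboxylate carrier Slc25a10, 4.03-fold. The erythroid mitoferrin Slc25a37 was 37.3-fold lower in the mother. The difference is that of the mothers and the fetal pool of the same slide, its spread comes from the fetal pools of 3, and the lone maternal pool was assumed to vary like them. With processed signals scaled to each channel's 75th percentile, 16 carriers were higher and 6 lower, against 21.6% and 20.2% of all genes.

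**Figure D4:**
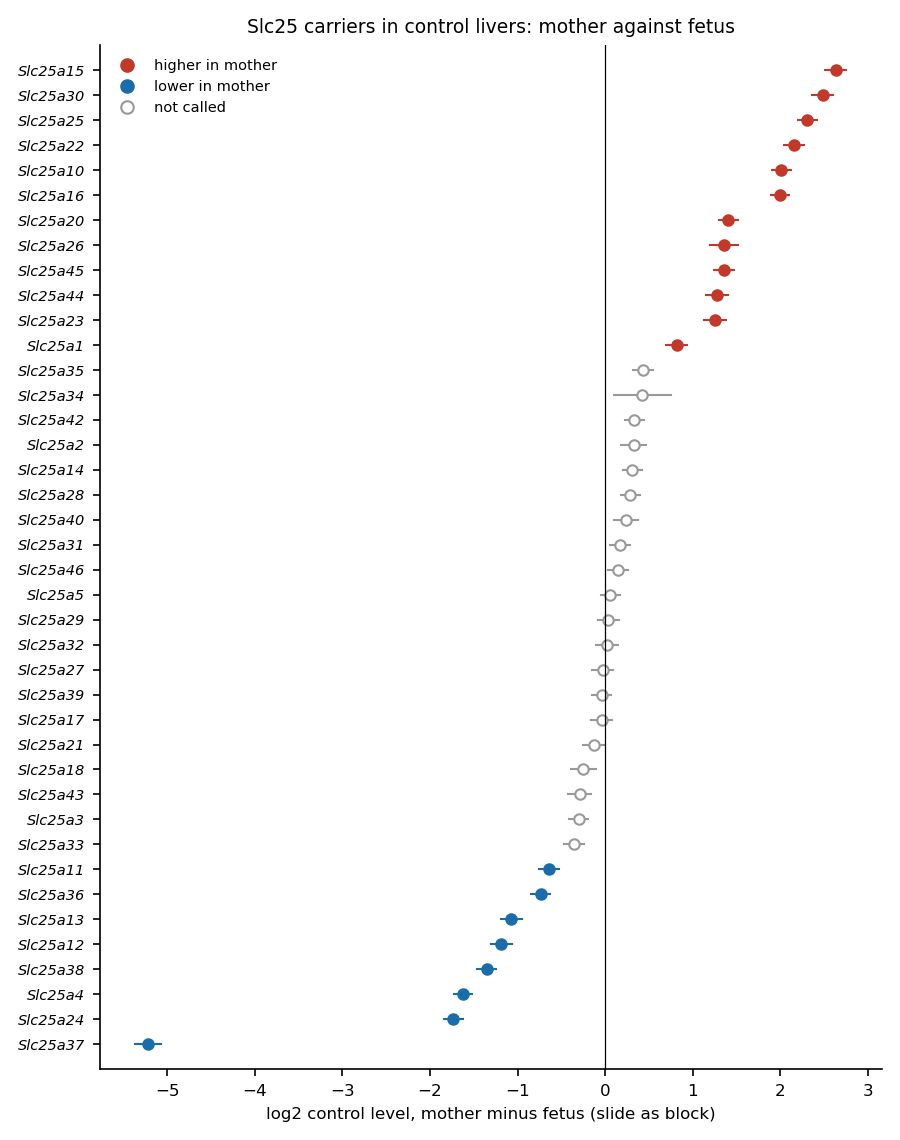
Difference in log2 control level, mother minus fetus, for 40 Slc25 carriers, with bars of 1 SE from the limma fit and filled points for adjusted p under 0.05. Slc25a37 lies furthest left at -5.22 and Slc25a15 furthest right at 2.63.

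Slc25a37 had a control level of 10.76 in the mothers and of 15.98, 15.76 and 15.94 in the fetal pools (difference -5.22 ± 0.15, SE; limma adjusted p = 0.00156), and a dimmer probe gave -3.26. All 12 erythroid markers were lower in the mother too, with a control sum of 30536 against 297189 to 390301 in the fetal pools, and 7 of the 12 were above background there. Slc25a38, which supplies glycine to heme synthesis, was lower in the mother by a difference of -1.35 (limma adjusted p = 0.00553), as were 11 of the 15 iron, heme and iron-sulfur genes. Slc25a28, the other mitoferrin, and the glutathione carriers Slc25a39 and Slc25a40 differed by 0.29, -0.04 and 0.24 and did not pass.

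Slc25a15 had a control level of 10.14 in the mothers and of 7.51, 8.06 and 7.95 in the fetal pools (difference 2.63 ± 0.12, SE; limma adjusted p = 0.0024). The maternal pool was above all fetal pools, and 9 of 10 urea cycle and ornithine genes were likewise higher in the mother. Slc25a22 had 11.50 in the mothers and 9.34, 9.68 and 9.76 in the fetal pools, and Slc25a44 10.11 in the mothers and 8.84, 8.92 and 8.80 in the fetal pools (limma adjusted p = 0.0029 and 0.00772). Both aspartate/glutamate carriers were lower in the mother, Slc25a12 by a difference of -1.18 (limma adjusted p = 0.00783) and Slc25a13 by -1.07 (limma adjusted p = 0.00959). The Slc25a12 difference was 0.33 on its dimmer probe and -0.43 with the probes averaged (limma adjusted p = 0.0547), and that of Slc25a13 was -0.31 with processed signals (limma adjusted p = 0.118), so that neither call held there.

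The calcium-dependent nucleotide carriers split: Slc25a25 and Slc25a23 were higher in the mother, at 2.31 and 1.26, and Slc25a24 was lower, at -1.73 (limma adjusted p = 0.0024, 0.00798 and 0.00352). A dimmer probe of Slc25a24, not well above background in the control mothers, gave -0.19 and was the one read when non-uniform spots were left out (limma adjusted p = 0.546); the average of the probes was -0.96. The translocase Slc25a4 was lower in the mother at -1.62 (limma adjusted p = 0.00393; -3.67 on a second probe), while Slc25a5 differed by 0.06 and did not pass, against 0.83 with processed signals (limma adjusted p = 0.0363). Among the carboxylic acid carriers, Slc25a10 had 13.42 in the mothers and 11.41, 11.39 and 11.39 in the fetal pools, Slc25a20 was higher in the mother at 1.41 and Slc25a1 at 0.82, and Slc25a11 was lower at -0.64, a difference that was 0.03 with processed signals. Slc25a16, at 2.00, and Slc25a26, at 1.36, were cofactor carriers higher in the mother. Slc25a36 was lower at -0.74, with the maternal control above background on 1 of 2 arrays. Slc25a32, whose FR response was the highest of the 42 members in both, differed by 0.02 in the controls and did not pass. Slc25a30 and Slc25a45, the carriers called lower in FR mothers, were higher in the mother at 2.49 and 1.36. The remaining 20 carriers, which did not pass, lay between -0.35 (Slc25a33) and 0.44 (Slc25a35), and Slc25a43 was not well above background in the mothers.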

How the data were processed

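RNA of pooled maternal and fetal livers (1000 ng, by the labels' protocols) was measured on Agilent two-colour arrays. The deposited scanner files hold spot and background intensity, processed intensity, flags (scored 0 or 1, deposited as such) and log10 ratios of Cy5 over Cy3. Per the file headers they come from Feature Extraction 9.5.3.1 (slide 1, mm9) and 11.0.1.1 (slide 2, mm8); the submitters' processing notes name 9.5.3.1. The authors' deposited log10 ratios equal those of their processed signals to within 5e-08 and served as an alternative.

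Here, intensities (medians on slide 2, means on slide 1) were corrected by normexp with offset 50 and loess (limma 3.58.1, R 4.3.3), with Aquantile for channel levels. Population-outlier spots were dropped, and dye-exchanged arrays averaged to 1 replicate. Log2 ratios were turned to FR over control by the dyes that the labels and deposited titles give. A gene was read from its brightest probe that was well above background in the same diet's channel on all arrays of the result. For the control level, the control channel had to be well above background on all maternal or on all fetal arrays. Tests were limma's, with Benjamini-Hochberg adjustment over all genes and a threshold of 0.05; the maternal call, with 1 pool pair, was 1.5-fold on both arrays. The scripts were tested on simulated data.

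Members above background are named, except 1 whose values are not reported here and which the counts include; partner genes come from lists, by count and by size of change. The members and lists were chosen with earlier results of these data known. Some sample descriptions name another tissue and species, and the titles were followed. Slide 2 probes were named through slide 1. Promoters are RefSeq's.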

Additional observations from a re-analysis of the deposited data

Results flagged for a closer look

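The maternal and fetal responses to FR differed for 2 of the 40 carriers by the test of the difference itself. For Slc25a12 the maternal minus fetal difference was 0.79 on the log2 scale (limma adjusted p = 0.0285), with log2 ratios of 1.05 in the mothers and 0.26 ± 0.07 in the fetuses (SD, n = 3). For Slc25a30 it was -1.66 (limma adjusted p = 0.00942), with -1.45 in the mothers and 0.21 ± 0.07 in the fetuses (SD, n = 3). No group held enough pool pairs for a test of single outlying samples.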

How the results depend on the processing

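Of the carriers called, 2 of 5 in the mothers (Slc25a32 and Slc25a30) kept their call under every alternative. For the control level 16 of 21 did, in the fetuses 0 of 13 and for the difference 0 of 2. No fetal or difference call could be kept under every alternative, because without the pool pair of 6 no gene on the array passed. Leaving out each fetal pool pair gave 0 to 11 carriers higher and 0 to 2 lower in the fetuses, and 0 to 1 higher and 0 to 2 lower for the maternal minus fetal response; the 0 counts for higher came without the pool pair of 6, where 12 and 5 carriers were higher at an unadjusted p under 0.05 in limma. The fits that left out a pool pair called 0.00% to 10.3% of all genes higher and 0.00% to 14.1% lower in the fetuses. For the difference they called 0.00% to 3.03% higher and 0.00% to 2.87% lower. With non-uniform spots left out, 4 carriers were higher and 1 lower in the fetuses (26 tested), against 8.13% and 11.2% of all genes. For the difference 0 were then higher (2 at an unadjusted p under 0.05), against 0.774% of all genes. For the control level 7 were higher and 1 lower (25 tested), against 16.1% and 13.1%. Slc25a12, then read from its dimmer probe, turned to -0.016 in the fetuses and 0.33 for the level. Without loess, 2 were higher and 1 lower in the fetuses, against 3.38% and 10.7% of all genes. In the mothers 1 was then higher and 1 lower, against 0.769% and 0.938%. For the difference 0 were higher (5 at an unadjusted p under 0.05), against 0.711%. In the mothers, the deposited ratios gave 3 higher and 3 lower, against 5.24% and 6.79% of all genes. An offset of 10 gave 4 higher and 2 lower there, against 3.91% and 5.17%. The fetal count lower was 1 with an offset of 10, the deposited ratios or median signals. For the difference, the deposited ratios gave 3 higher and 2 lower, against 4.04% and 4.67% of all genes. Averaged probes gave 0 higher (8 at an unadjusted p under 0.05), against 1.70%. Slide as a block gave 0 higher and 0 lower (4 and 2 at an unadjusted p under 0.05), where no gene passed. The share of all genes at an unadjusted p under 0.05 was not counted. Slc25a11 turned to 0.028 for the level with processed signals. Where non-uniform spots or a pool pair were left out, fewer genes or samples entered the fit; the cause was otherwise not tested. Leaving out a fetal pool of 3 was not run for the level, where no residual degree of freedom remained. FR and control pools share each array, so that every ratio is already within a pair. Mothers could not be paired with fetuses, because the labels do not say which mothers gave which fetal pool. Cy3 signal was dimmer on slide 1, which held the mothers and the fetal pool pair of 6. Both dyes were dimmest on the maternal arrays. The effect of dim signal on the precision of these values was not tested.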
